A study of Mus musculus with 9 samples.

Results

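The genes described here encode 10 secreted antagonists of WNT signalling: Dkk2, Dkk3, Dkk4, Sfrp1, Sfrp2, Sfrp4, Frzb, Wif1, Notum and Sostdc1. They were chosen by name, with earlier results of these data known, and matched on the gene symbol. All 10 were found among the 46517 gene rows of each table, and all 10 were among the 20491 genes that had enough counts to be tested.

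WNT proteins are secreted, lipid-modified ligands that bind Frizzled receptors and the co-receptors LRP5 and LRP6, which stabilises β-catenin and switches on genes through TCF and LEF factors. The SFRP proteins (Sfrp1, Sfrp2, Sfrp4 and Frzb) and Wif1 bind WNT ligands outside the cell, Dkk2, Dkk4 and Sostdc1 bind the co-receptors, and Notum is an enzyme that removes the lipid from WNT. In the hair follicle, WNT signals drive growth and hair shaft formation, and secreted inhibitors are known from both the resting bulge and the growing bulb.

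The 9 libraries came from 4 cell populations sorted from mouse back skin at postnatal day 30, in late anagen, the growth phase of the hair cycle. There were 3 libraries of hair follicle stem cells (HFSC), 2 of outer root sheath (ORS, the outer epithelial sleeve of the follicle), 2 of basal hair bulb (basal HB) and 2 of suprabasal hair bulb (suprabasal HB). All 9 carried the strain Lhx2-GFP (CD1), mixed sex and 1 set of sort markers, namely CD34, Sca-1, Pcadherin, GFP and the integrins α6 and b1. The extraction protocol instead names K14-H2BGFP mice, in which the Krt14 promoter drives a GFP-tagged histone, and the labels give neither the gate of each population nor the number of mice behind a library. The labels name no treatment.

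Each HFSC library held 25098237 to 29902799 expected counts and each of the other 6 held 45438637 to 88596741. Rps12, a ribosomal protein gene, was listed at 0 in all 3 HFSC libraries and had 15484 to 20007 counts in the other 6, and the Y-linked gene Ddx3y had at most 1.25 counts in HFSC and at least 4299.9 elsewhere. A difference between HFSC and any other population cannot be told apart from a difference between these sets of libraries. The ORS libraries also differed from each other, with 75.2 counts of Xist, which is transcribed from the silenced X of female cells, in replicate 1 and 130611 in replicate 2. Although all 9 libraries are labelled mixed sex, Xist had 65.3 and 46.5 counts in suprabasal HB and 24707 and 20063 in basal HB, so a difference between these populations cannot be told apart from one in the sex of the cells. Among defining markers, the bulge surface protein gene Cd34 read 205 to 256 TPM, the authors' length-scaled level, in HFSC and 10.7 to 60.0 elsewhere. But Nfatc1, also a bulge gene, was only 0.99 to 1.64 TPM in HFSC, below the 2.15 to 2.79 of both bulb populations. The 8 bulge genes listed summed to 4060 to 4720 TPM in HFSC and to 3940 and 5090 in ORS. From HFSC to ORS, 75% of them fell and 12.5% rose (Lhx2, 2.35-fold), beside 23.8% and 18.1% of all genes tested. A list of 5 sheath keratins summed to 3040 to 3600 TPM in ORS, below the 7450 to 8640 in HFSC. A list of 6 hair matrix genes was highest in basal HB, at 1260 to 1350 TPM. Of the hair shaft and inner root sheath list, the hair keratin gene Krt35 was highest in suprabasal HB, at 1362 and 1406 TPM. Not every gene of that list went this way. From basal to suprabasal HB, 85.7% of it rose and 14.3% fell, namely Tchh, which went from 1312 and 1304 TPM down to 182 and 158. Gata3 was highest in ORS, at 74.8 and 95.7 TPM.

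Each population had its own mixture of these antagonists. The 10 genes together gave 343 to 374 TPM in HFSC, 110 and 53.7 in ORS, against 361 and 328 in basal HB, with 233 and 229 in suprabasal HB, so both ORS libraries lay below all the others. In HFSC, Sfrp1 made up 72.0% of that sum on average and Dkk3 15.5%. In ORS, Sfrp1 (36.2%), Wif1 (28.9%) and Dkk3 (21.5%) led. In basal HB, Wif1 made up 45.3%, followed by Notum (16.1%), Sostdc1 (12.2%), Sfrp1 (10.8%) and Dkk2 (6.74%). In suprabasal HB, Sfrp4 (32.2%), Wif1 (29.9%) and Dkk3 (22%) led, with Notum at 10.1%. Wif1 was first in suprabasal HB replicate 1 (35.07%, Sfrp4 25.85%) and Sfrp4 in replicate 2 (38.49%, Wif1 24.73%). In bulk samples such as these, fewer cells of a type and less RNA per cell cannot be told apart.

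**Figure D1:**
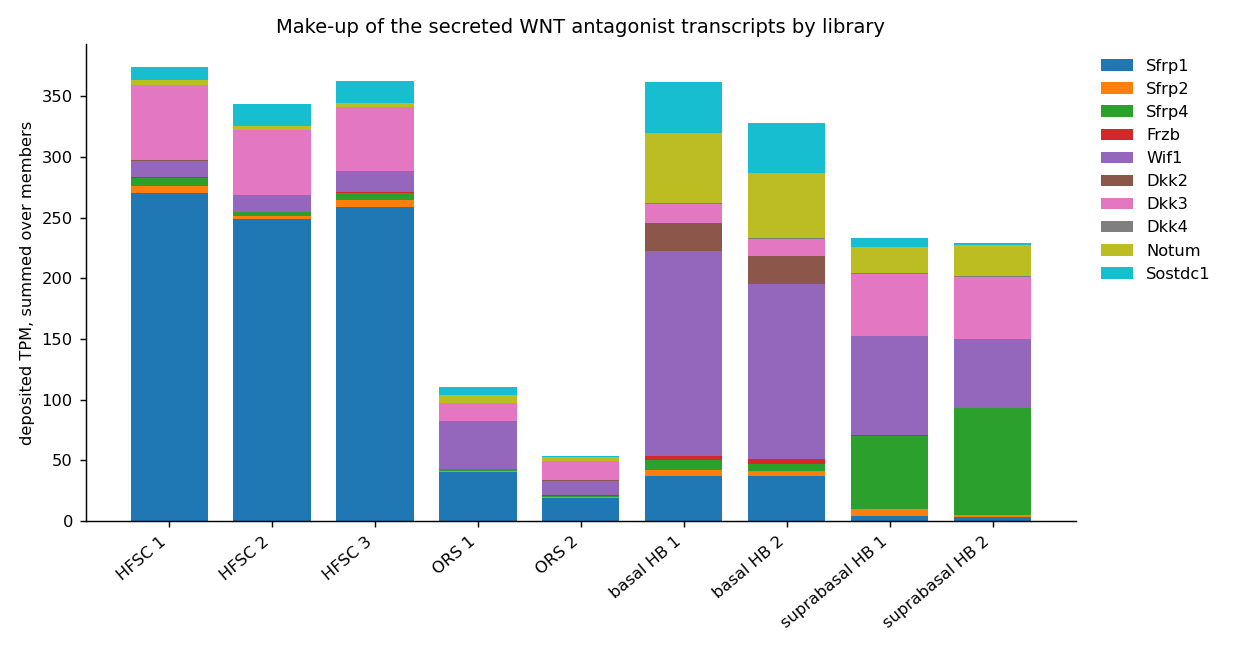
Stacked bars give the deposited TPM of each of the 10 antagonists in each of the 9 libraries, on a linear axis that starts at 0. Sfrp1 fills most of each HFSC bar, Wif1 is the largest segment in basal HB, Sfrp4 appears as a large segment in suprabasal HB, and the ORS bars reach only 110 and 53.7 TPM.

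By mean normalised CPM (counts scaled to a common library size with TMM factors), 5 members were highest in basal HB (Dkk2, Frzb, Wif1, Notum and Sostdc1), 3 in HFSC (Dkk3, Sfrp1 and Sfrp2) and 2 in suprabasal HB (Sfrp4 and Dkk4). None was highest in ORS. A gene was taken as changed when its Benjamini-Hochberg adjusted p in edgeR's quasi-likelihood test, over all 20491 genes, was below 0.05. By this test the highest population did not pass against the next for Wif1 (adjusted p = 0.134), Sostdc1 (0.214), Dkk4 (0.316) and Sfrp2 (0.502). For Dkk3 and Notum it passed narrowly (0.0439 each). The places of these members in the counts above are therefore less certain.

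From HFSC to ORS, 5 of the 10 members fell (Dkk3, Sfrp1, Sfrp2, Sfrp4 and Sostdc1) and 0 rose, where 23.8% of all genes tested fell and 18.1% rose. Fits that leave a population with 1 library assume that it varies like the others. Without ORS replicate 2, 8 members passed: Dkk2, Dkk4, Wif1 and Notum joined, the last 3 of them higher in ORS, and Sostdc1 dropped out. The median log2 change was -1.78 over the members and -0.05 over all genes. From ORS to basal HB, 7 rose (Dkk2, Sfrp2, Sfrp4, Frzb, Wif1, Notum and Sostdc1) and 0 fell, where 15.8% of all genes rose and 14.7% fell. The median log2 change was 2.48 over the members and -0.04 over all genes. The members that fell on the first of these steps and rose on the second were Sfrp2, Sfrp4 and Sostdc1, and both steps use the same ORS libraries.

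Between basal and suprabasal HB, 2 members rose (Dkk3 and Sfrp4) and 5 fell (Dkk2, Sfrp1, Frzb, Notum and Sostdc1), where 13.1% of all genes rose and 14.8% fell. The median log2 change was -0.99 over the members and 0 over all genes. Basal HB against HFSC had 5 members higher (Dkk2, Dkk4, Frzb, Wif1 and Notum; 22.8% of all genes) and 2 lower (Dkk3 and Sfrp1; 26.1%). Suprabasal HB against ORS had 5 higher (Dkk3, Sfrp2, Sfrp4, Wif1 and Notum; 14.3%) and 1 lower (Sfrp1; 15.1%). Suprabasal HB against HFSC had 4 higher (Dkk4, Sfrp4, Wif1 and Notum; 25.2%) and 2 lower (Dkk3 and Sfrp1; 26.3%).

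The split of all genes into higher and lower depended on the fit. Of the scalings of the counts, upper-quartile scaling moved it by over 10 percentage points for basal HB against HFSC, where the share of changed genes that were higher went from 46.7% to 57.2% and the median log2 change of all genes from 0 to 0.13. Limma on log2(TPM + 1), which changes the unit and the test together, gave shares of 68.5% in place of 43.2% for ORS against HFSC, 20.5% in place of 46.8% for suprabasal against basal HB, 72.5% for basal HB against HFSC, and 31.3% in place of 48.6% for suprabasal HB against ORS. In the last of these, DESeq2 size factors and upper-quartile scaling gave 47.9% and 48.7%. No member that passed the test turned its direction under any of these fits.

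**Figure D2:**
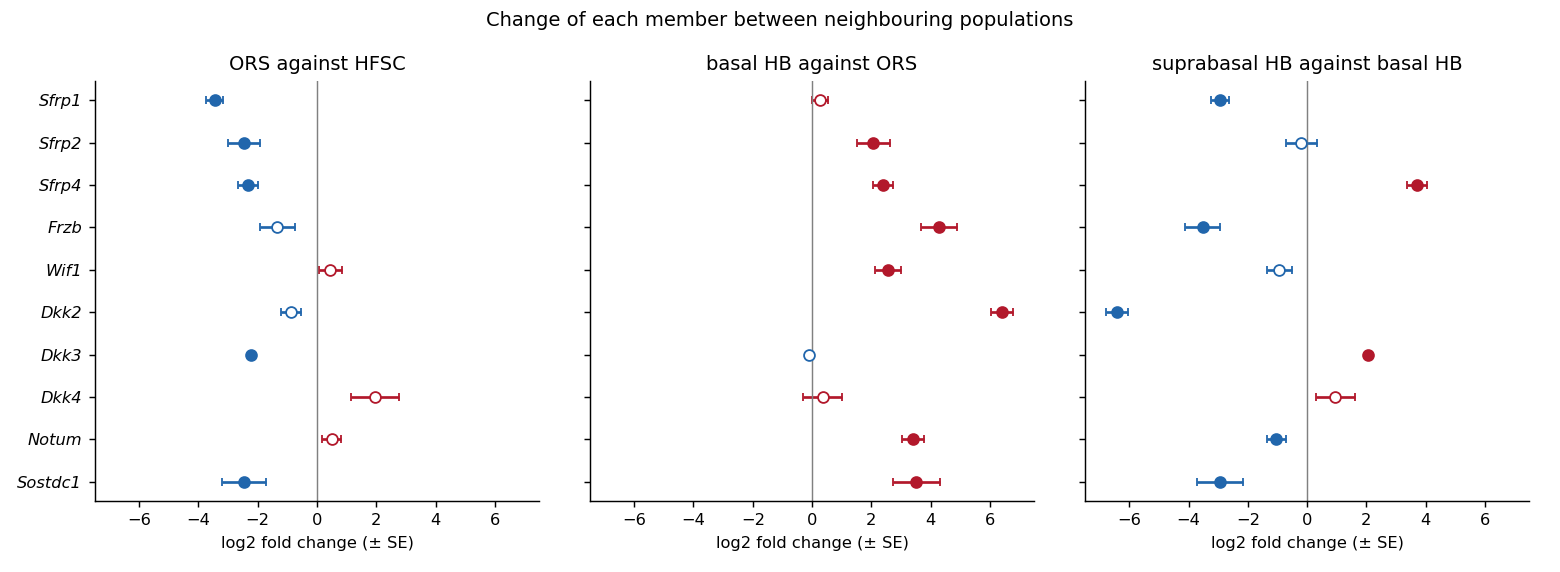
Points give the log2 fold change of each antagonist, with bars of 1 standard error, for ORS against HFSC, basal HB against ORS and suprabasal HB against basal HB. Filled points passed an adjusted p of 0.05 and open points did not; red is higher and blue lower in the first population named. Filled points lie only left of 0 in the first panel and only right of 0 in the second, and Dkk2 has the largest change in the other 2.

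Dkk2 and Wif1 are the members shown with sequence, because both were highest in basal HB and they parted in suprabasal HB. RefSeq windows of 300 bases around the start site (250 before, 50 after; GRCm38.p6) were found for 4 of the 10 members, namely Dkk2, Sfrp2, Frzb and Wif1. The stretch just before the GENCODE start of each is given on the + strand, with CG dinucleotides in capitals, at chr3:132085042-132085291 for Dkk2 and chr10:121033754-121033959 for Wif1.
Dkk2: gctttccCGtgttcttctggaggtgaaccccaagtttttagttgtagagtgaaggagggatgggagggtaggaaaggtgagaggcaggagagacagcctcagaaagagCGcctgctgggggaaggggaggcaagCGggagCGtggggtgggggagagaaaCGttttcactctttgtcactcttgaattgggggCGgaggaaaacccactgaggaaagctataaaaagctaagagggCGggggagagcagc
Wif1: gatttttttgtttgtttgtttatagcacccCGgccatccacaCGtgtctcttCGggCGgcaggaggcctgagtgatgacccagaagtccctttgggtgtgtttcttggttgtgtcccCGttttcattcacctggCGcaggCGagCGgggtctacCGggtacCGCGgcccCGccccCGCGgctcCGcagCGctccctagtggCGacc
The whole windows held 11 CG dinucleotides for Dkk2, 22 for Sfrp2, 20 for Frzb and 25 for Wif1, where the median of all 32851 windows was 7. Such counts were common, as 41.4%, 23.1%, 26.5% and 18.4% of all windows, in the same order, held at least as many. The letters CTTTGAT and CTTTGAA, which TCF and LEF factors can bind, were in none of the 4 windows on either strand, and were in 8.65% of all windows. With so few windows and so low a share, their absence does not set the members apart.

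**Figure D3:**
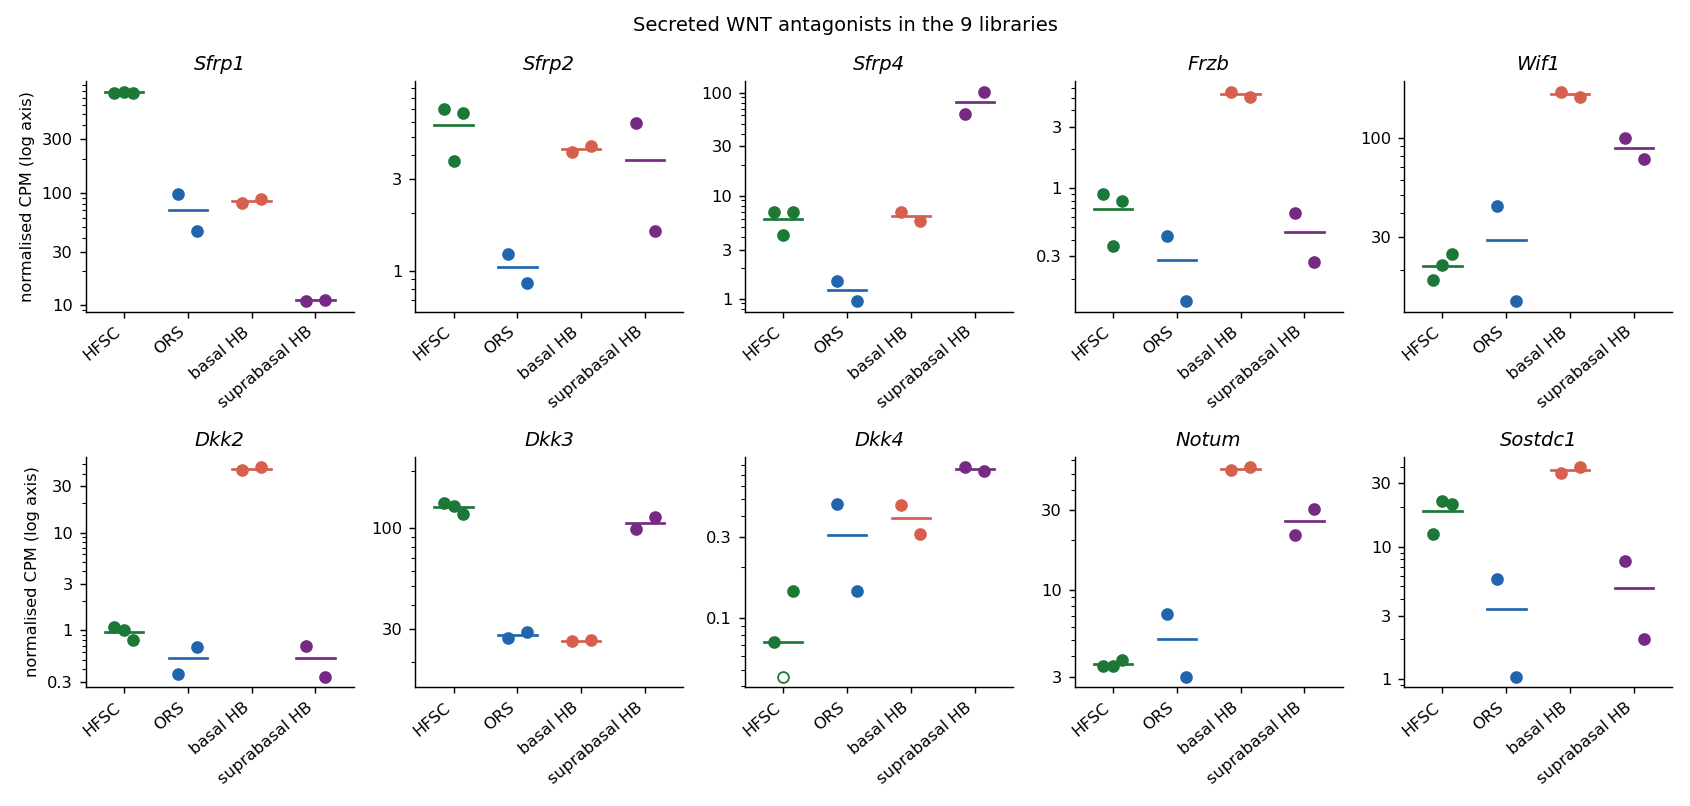
Each panel shows 1 antagonist in normalised CPM on its own log axis, with 1 point per library (3 HFSC, 2 each of ORS, basal HB and suprabasal HB) and a line at the mean of the population; the open point of Dkk4 marks a library with 0 counts, drawn below the lowest value. Dkk2 and Frzb stand out in basal HB alone, Sfrp1 steps down from HFSC, and Sfrp4 stands out in suprabasal HB.

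Sfrp1 (ENSMUSG00000031548, chromosome 8, 23411502 to 23449632, GRCm38), a decoy that holds WNT ligands away from Frizzled, was the most abundant antagonist of the bulge. It read 775, 794 and 769 normalised CPM in HFSC, 96.6 and 45.4 in ORS, whereas the values were 81.4 and 88.9 in basal HB, with 10.9 and 11.2 in suprabasal HB. HFSC stood above and suprabasal HB below every other library, while the ORS libraries lay on both sides of basal HB. Sfrp1 fell 11.0-fold from HFSC to ORS (log2 change -3.46, SE 0.29, adjusted p = 7.38e-05), or 17.1-fold without ORS replicate 1. It fell 7.7-fold from basal to suprabasal HB (log2 change -2.94, SE 0.30, adjusted p = 0.000261), and suprabasal HB was 70.4-fold below HFSC. Basal HB against ORS did not pass (log2 change 0.26, SE 0.28, adjusted p = 0.546), but passed without ORS replicate 1 at 1.87-fold higher (adjusted p = 0.00131). Suprabasal HB was 6.41-fold below ORS, or 4.1-fold without ORS replicate 1.

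Sfrp4 (ENSMUSG00000021319, chromosome 13, 19623104 to 19632994), a relative of Sfrp1, had the highest mean TPM of the members in suprabasal HB. In suprabasal HB replicate 1 it was below Wif1 (60.26 against 81.75 TPM). It read 6.89, 4.16 and 6.94 normalised CPM in HFSC, 1.48 and 0.950 in ORS, while basal HB had 6.90 and 5.67 and suprabasal HB 61.3 and 102. Suprabasal HB was above and ORS below all other libraries, and HFSC and basal HB overlapped. Sfrp4 rose 13-fold from basal to suprabasal HB (log2 change 3.70, SE 0.33, adjusted p = 0.000147) and 5.22-fold from ORS to basal HB (log2 change 2.39, SE 0.34, adjusted p = 0.00112). It was 5.01-fold lower in ORS than in HFSC, and 68.0-fold higher in suprabasal HB than in ORS (adjusted p = 1.41e-05).

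Sfrp2 (ENSMUSG00000027996, chromosome 3, 83766321 to 83774316), known also from dermal cells, was low throughout. It read 6.96, 3.72 and 6.69 normalised CPM in HFSC, 1.23 and 0.860 in ORS, against 4.19 and 4.48 in basal HB, with 5.92 and 1.61 in suprabasal HB. Only the ORS libraries lay below all the rest. Sfrp2 fell 5.58-fold from HFSC to ORS (adjusted p = 0.00643) and rose 4.16-fold from ORS to basal HB (log2 change 2.06, SE 0.56, adjusted p = 0.0218). The second of these did not pass without ORS replicate 2 (adjusted p = 0.117), basal HB replicate 1 (0.0753) or basal HB replicate 2 (0.0798), nor with limma on TPM (0.0681 and 0.0531 with pseudocounts of 1 and 0.1). Suprabasal HB exceeded ORS 3.63-fold (adjusted p = 0.0343), but only 1.55-fold without suprabasal HB replicate 1 (adjusted p = 0.328) and 5.74-fold without replicate 2; this call failed in 9 of 18 alternatives, among them the fits without HFSC replicate 3, either ORS library or either basal HB library (adjusted p 0.0536 to 0.169). Sfrp2 did not pass for suprabasal HB against HFSC (adjusted p = 0.324), but passed at 3.58-fold lower without suprabasal HB replicate 1 (adjusted p = 0.0101).

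Frzb (ENSMUSG00000027004, chromosome 2, 80411970 to 80447625, minus strand), the SFRP first found in cartilage, was a low basal HB gene. It read 0.907, 0.354 and 0.800 normalised CPM in HFSC, 0.428 and 0.134 in ORS, whereas the values were 5.60 and 5.07 in basal HB, with 0.641 and 0.269 in suprabasal HB. Both basal HB libraries were above all others, and the other 3 populations overlapped. Frzb rose 19.3-fold from ORS to basal HB (log2 change 4.27, SE 0.61, adjusted p = 0.00111), or 39.0-fold and 12.4-fold without ORS replicate 1 and 2 in turn. It fell 11.5-fold from basal to suprabasal HB (log2 change -3.53, SE 0.60, adjusted p = 0.00306), or 19.7-fold without suprabasal HB replicate 1. Basal HB exceeded HFSC 7.65-fold (adjusted p = 0.0016). ORS against HFSC did not pass (2.53-fold lower, adjusted p = 0.0994), except without ORS replicate 1 (5.11-fold lower, adjusted p = 0.0282). The effective length behind its TPM varied from 1591 to 3099 bases between libraries, so its TPM depends on how reads were shared between transcripts. The same limit holds for the TPM of Notum (1278 to 1994 bases) and, less so, of Sfrp2 (1610 to 1953) and Wif1 (1954 to 2092).

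Wif1 (ENSMUSG00000020218, chromosome 10, 121033960 to 121100650), the WNT inhibitory factor that binds the ligand through a domain unlike that of the SFRPs, was the most abundant antagonist of basal HB. It read 17.6, 21.2 and 24.2 normalised CPM in HFSC, 43.7 and 13.7 in ORS, while basal HB had 175 and 164 and suprabasal HB 100.1 and 77.3. Both bulb populations lay above both others, and the ORS libraries spanned the HFSC range. Wif1 rose 5.94-fold from ORS to basal HB (log2 change 2.57, SE 0.44, adjusted p = 0.00265), or 12.4-fold without ORS replicate 1 and 3.89-fold without ORS replicate 2. It was 8.09-fold higher in basal HB than in HFSC (adjusted p = 0.000322) and 4.22-fold higher in suprabasal HB than in HFSC (adjusted p = 0.002). Suprabasal HB exceeded ORS 3.1-fold (adjusted p = 0.0205), or 6.48-fold and 2.03-fold without ORS replicate 1 and 2 in turn, and did not pass without suprabasal HB replicate 1 (adjusted p = 0.0812) or in a fit of these 2 populations alone (0.0914).

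Over the step from basal to suprabasal HB, Wif1 was 1.91-fold lower, and this did not pass (log2 change -0.94, SE 0.42, adjusted p = 0.134). It passed without ORS replicate 1 (adjusted p = 0.00377), without ORS replicate 2 (0.00379) and in a fit of both bulb populations alone (0.00615). For ORS against HFSC, Wif1 did not pass (log2 change 0.45, adjusted p = 0.386), and with a single ORS library, whose spread is then taken from the other populations, it passed in opposite directions: 1.53-fold lower without ORS replicate 1 (adjusted p = 0.0479) and 2.08-fold higher without ORS replicate 2 (adjusted p = 0.00357). The ORS libraries thus lay on opposite sides of HFSC.

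Dkk2 (ENSMUSG00000028031, chromosome 3, 132085292 to 132180304), a Dickkopf protein that binds the LRP co-receptors, was close to absent outside basal HB. It read 1.09, 1.02 and 0.800 normalised CPM in HFSC, 0.354 and 0.682 in ORS, against 43.3 and 46.5 in basal HB, with 0.698 and 0.336 in suprabasal HB. In expected counts, basal HB had 2978 and 3128 and no other library more than 61. Dkk2 rose 84.9-fold from ORS to basal HB (log2 change 6.41, SE 0.38, adjusted p = 4.88e-05) and fell 85.3-fold from basal to suprabasal HB (log2 change -6.41, SE 0.38, adjusted p = 2.82e-05), or 133-fold without suprabasal HB replicate 1. Basal HB exceeded HFSC 46.3-fold (adjusted p = 6.48e-06). ORS and suprabasal HB overlapped (adjusted p = 0.998), and HFSC, although above both, did not pass against ORS (1.83-fold, adjusted p = 0.0738) or suprabasal HB (1.84-fold, adjusted p = 0.0736). The first passed without ORS replicate 2 (adjusted p = 0.0235) or suprabasal HB replicate 1 (0.0449), and the second without ORS replicate 1 (0.0412), ORS replicate 2 (0.0411) or suprabasal HB replicate 1 (0.0225). Both passed with the DESeq2 Wald test (0.0313 and 0.0348).

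Dkk3 (ENSMUSG00000030772, chromosome 7, 112116017 to 112159057, minus strand), a divergent Dickkopf whose place in WNT signalling is less settled, was high at both ends of the series. It read 136, 131 and 119 normalised CPM in HFSC, 26.7 and 28.8 in ORS, whereas the values were 25.7 and 26.0 in basal HB, with 99.7 and 115 in suprabasal HB. HFSC and suprabasal HB lay far above ORS and basal HB, and the replicates were close, with SDs of 0.21 CPM in basal HB and 10.8 in suprabasal HB. Dkk3 fell 4.64-fold from HFSC to ORS (log2 change -2.21, SE 0.10, adjusted p = 1.63e-05) and rose 4.14-fold from basal to suprabasal HB (log2 change 2.05, SE 0.11, adjusted p = 2e-05). ORS and basal HB differed by a log2 change of -0.10 (SE 0.10, adjusted p = 0.541). Suprabasal HB was 1.2-fold below HFSC (adjusted p = 0.0439), a difference that passed in 4 of 18 alternatives and in no fit without 1 of the 9 libraries (adjusted p 0.0551 to 0.299).

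Dkk4 (ENSMUSG00000031535, chromosome 8, 22624043 to 22627547), a Dickkopf known as a WNT target in follicle placodes, was at the edge of detection. Its counts were 2, 0 and 4 in HFSC, 32 and 13 in ORS, while basal HB had 32 and 21 and suprabasal HB 41 and 33, which is at most 0.773 normalised CPM. Suprabasal HB lay above and ORS and basal HB between, with 1 HFSC library reaching the lower ORS library. Suprabasal HB was higher than HFSC (log2 change 3.27, SE 0.78, adjusted p = 0.00724), or 19.3-fold in place of 9.62-fold without HFSC replicate 3. Basal HB was higher than HFSC (log2 change 2.31, SE 0.81, adjusted p = 0.0409), 4.97-fold, or 10.3-fold without HFSC replicate 3. That call was lost without HFSC replicate 1 (adjusted p = 0.0856), HFSC replicate 2 (0.0671), basal HB replicate 1 (0.172), basal HB replicate 2 (0.0745) or suprabasal HB replicate 1 (0.0583). ORS against HFSC did not pass (adjusted p = 0.0867) except without ORS replicate 2 (0.0365) and with limma on log2(TPM + 0.1) (0.0484).

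Sostdc1 (ENSMUSG00000036169, chromosome 12, 36314139 to 36318452), which binds LRP co-receptors and also BMP ligands, was high in basal HB and intermediate in HFSC. It read 12.4, 22.1 and 21 normalised CPM in HFSC, 5.68 and 1.04 in ORS, against 36.2 and 39.7 in basal HB, with 7.80 and 1.99 in suprabasal HB. Basal HB was above all others, HFSC was next, and ORS and suprabasal HB overlapped with wide spreads. Sostdc1 rose 11.4-fold from ORS to basal HB (log2 change 3.51, SE 0.80, adjusted p = 0.00986), or 36.4-fold and 6.66-fold without ORS replicate 1 and 2 in turn. It fell 5.55-fold from HFSC to ORS (adjusted p = 0.0257), or 17.7-fold without ORS replicate 1, and did not pass without ORS replicate 2 (3.24-fold, adjusted p = 0.0779), HFSC replicate 2 (0.0663) or HFSC replicate 3 (0.068). It fell 7.69-fold from basal to suprabasal HB (adjusted p = 0.0223), or 19.0-fold without suprabasal HB replicate 1, and did not pass without suprabasal HB replicate 2 (4.96-fold, adjusted p = 0.108), basal HB replicate 1 (0.0753) or basal HB replicate 2 (0.0777). Basal HB was 2.05-fold above HFSC and did not pass (adjusted p = 0.214), although it did in a fit of these 2 populations alone (0.00429). Suprabasal HB was 3.74-fold below HFSC and did not pass either (adjusted p = 0.0523), but did in 7 of 18 alternatives, among them the fits without ORS replicate 1 (0.0127), ORS replicate 2 (0.0125) or suprabasal HB replicate 1 (9.22-fold, 0.0217).

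Notum (ENSMUSG00000042988, chromosome 11, 120653788 to 120661175, minus strand), the WNT-inactivating enzyme and itself a known WNT target, marked both bulb populations. It read 3.48, 3.46 and 3.78 normalised CPM in HFSC, 7.13 and 3 in ORS, whereas the values were 52.2 and 54.7 in basal HB, with 21.4 and 30.5 in suprabasal HB. Basal HB was above suprabasal HB, which was above both others, and the ORS libraries lay on either side of HFSC. Notum rose 10.6-fold from ORS to basal HB (log2 change 3.41, SE 0.36, adjusted p = 0.000284), or 17.8-fold without ORS replicate 1. Basal HB exceeded HFSC 14.9-fold (adjusted p = 3.04e-05), and suprabasal HB exceeded ORS 5.15-fold (adjusted p = 0.00107), or 8.66-fold without ORS replicate 1. From basal to suprabasal HB it fell 2.06-fold (adjusted p = 0.0439), a call that failed in 8 of 18 alternatives, among them each fit without a bulb library (adjusted p 0.0673 to 0.199) or an HFSC library (0.0541 to 0.06).

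Notum did not pass for ORS against HFSC (log2 change 0.49, adjusted p = 0.253), but did without ORS replicate 2, at 2-fold higher (adjusted p = 0.0064). The exons of Notum overlap 2 antisense genes, Notumos and Myadml2os, whose counts were 5.3% to 19.7% and 1.78% to 7.06% of those of Notum. Sfrp2 overlaps the antisense gene Gm26771, at up to 0.827% of its counts. Whether strand was used in counting is not given in the sources used here, so reads of these pairs cannot be told apart.

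A further list held 5 other secreted antagonists, of which Sfrp5 and Dkkl1 had enough counts to be tested. Sfrp5, an SFRP close to Sfrp1, was also a basal HB gene, at 7.1 ± 0.784 normalised CPM (SD, n = 2) against 0.896 ± 0.508 in ORS, 0.757 ± 0.343 in suprabasal HB (n = 2 each) and 0.59 ± 0.341 in HFSC (n = 3). It rose 7.98-fold from ORS to basal HB (adjusted p = 0.00304) and fell 9.29-fold from basal to suprabasal HB (adjusted p = 0.00313). Dkkl1 had 6 to 12 counts in HFSC, 4 and 3 in ORS, while basal HB had 10 and 5 and suprabasal HB 29 and 6. It passed as lower in ORS than in HFSC (adjusted p = 0.0212) and as higher in suprabasal HB than in ORS (adjusted p = 0.0251). Dkk1 had at most 13.7, Cer1 at most 12 and Sost at most 3.

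The ligands that these proteins act on were also unevenly spread. The counts for them and for the other lists of the pathway are read beside the shares of all genes that rose and fell, which were 15.8% and 14.7% from ORS to basal HB, 13.1% and 14.8% from basal to suprabasal HB, and 18.1% and 23.8% from HFSC to ORS. The 19 WNT genes summed to 76.0 to 91.9 TPM in HFSC, 224 and 170 in ORS, while basal HB had 435 and 394 and suprabasal HB 315 and 316. The summed antagonists were therefore above the summed ligands in all 3 HFSC libraries and below them in the other 6. From ORS to basal HB, 7 of 15 tested ligands rose and 1 fell (46.7% and 6.67%), among them Wnt3 (17.3-fold higher) and Wnt7b (5.09-fold higher), with Wnt9a 2.77-fold lower. From basal to suprabasal HB, 1 rose (Wnt2, 7.42-fold) and 4 fell (6.67% and 26.7%), among them Wnt7b and Wnt9a. From HFSC to ORS, 5 rose, among them Wnt5a (4.66-fold) and Wnt4 (2.82-fold), and 3 fell, among them Wnt2 and Wnt5b.

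Among 18 Frizzled receptors and co-receptors, 2 rose and 8 fell from ORS to basal HB (11.1% and 44.4%, beside 15.8% and 14.7% of all genes). Kremen1, a Dickkopf receptor, rose 1.91-fold and Fzd3 4.03-fold, and Fzd5 and Fzd1 fell 3.52-fold and 3.53-fold. From basal to suprabasal HB, 1 rose (Ryk, 1.3-fold) and 3 fell, among them Fzd4 (4.67-fold), and from HFSC to ORS 4 rose and 4 fell; the shares that fell at the first of these steps (16.7%) and at the second (22.2%) were near those of all genes (14.8% and 23.8%). Of 9 R-spondins, LGR receptors and receptor ligases, which raise or lower the receptors at the cell surface, 4 rose and 3 fell from ORS to basal HB (44.4% and 33.3%). Rspo4 rose 41.3-fold and Rspo1 11.0-fold there, and Lgr6 and Lgr4 fell 5.97-fold and 2.72-fold. From basal to suprabasal HB, 0 rose and 5 fell (55.6%), among them Rspo4 (20.8-fold), and from HFSC to ORS 4 rose and 1 fell.

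Of 14 WNT target and feedback genes other than the members, 7 rose and 3 fell from ORS to basal HB (50% and 21.4%, beside 15.8% and 14.7% of all genes). Axin2, the feedback inhibitor read as a general WNT target, went from 14.1 ± 1.88 normalised CPM in HFSC (SD, n = 3) to 40.2 ± 8.9 in ORS (n = 2) and 123 ± 4.91 in basal HB (n = 2). At the second step Nkd1 rose 6.59-fold, and Lgr5 and Myc fell 4.38-fold and 1.74-fold. From basal to suprabasal HB, 5 rose, among them Myc (2.29-fold) and Ccnd1 (2.58-fold), and 2 fell, Lgr5 (12.9-fold) and Twist1 (5.62-fold). From HFSC to ORS, 7 rose and 1 fell. Of 16 genes of the intracellular relay, 3 rose and 3 fell from ORS to basal HB, with Lef1 3.33-fold higher and Tcf7l1 2.55-fold lower. These 18.8% each way were near the shares of all genes. From HFSC to ORS 4 of these rose and 2 fell, and from basal to suprabasal HB 1 rose and 2 fell. All 4 ligand release genes changed from ORS to basal HB, 1 higher (Gpc6) and 3 lower, and from basal to suprabasal HB 1 rose (Wls) and 3 fell.

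Markers of other cells were present and differed between the populations. A list of 17 dermal papilla and fibroblast genes summed to 1160 to 1810 TPM in HFSC, 1150 and 747 in ORS, against 1680 and 1400 in basal HB, with 2200 and 1030 in suprabasal HB, and none of the 17 was at 0 in a whole population. From ORS to basal HB 10 of the 17 rose and 1 fell (58.8% and 5.88%, beside 15.8% and 14.7% of all genes), and from basal to suprabasal HB 2 rose and 8 fell (11.8% and 47.1%, beside 13.1% and 14.8%). By mean normalised CPM, 8 of the 17 were highest in basal HB, as Dkk2 and Frzb were, 6 in HFSC (Alpl, Col3a1, Dpt, Lum, Sparc and Vcan) and 3 in suprabasal HB (Col1a1, Col1a2 and Dcn). Of the first 8, Corin read 37.1 and 30.5 TPM in basal HB and at most 6.1 elsewhere, and Inhba 38.9 and 29.6 and at most 2.04 elsewhere, named here after their values were seen. Sox2 was at most 1.5 TPM and Pdgfra at most 8.18 TPM in any library. The part of these markers in the basal HB levels of Dkk2, Frzb, Wif1, Notum and Sostdc1 was not tested.

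The 7 smooth muscle and mural genes summed to 1410 to 2130 TPM in HFSC, 525 to 618 in ORS, 1150 to 1230 in basal HB and 39.9 to 64.5 in suprabasal HB. Dkk3, Sfrp1, Sfrp2, Sfrp4 and Sostdc1 fell from HFSC to ORS, where this sum was lower too. The sum was also higher in basal HB than in ORS or suprabasal HB, as the means of Dkk2, Frzb, Wif1, Notum and Sostdc1 were. HFSC went the other way: its sum was above that of basal HB, and its means of these members were below. Dkk2, for example, had means of 0.969 normalised CPM in HFSC and 44.9 in basal HB, and Sostdc1 18.5 and 37.9. From ORS to basal HB, 57.1% of the 7 rose, among them Myh11 (26.8-fold) and Des (16.5-fold), and 14.3% fell (Cspg4, 2.24-fold). All genes had 15.8% and 14.7%. From basal to suprabasal HB 100% of the 7 fell, beside 14.8% of all genes. The part of these genes in the levels of the members named was not tested. The 8 melanocyte genes summed to 62.8 to 99.0 TPM in HFSC, 256 and 52.1 in ORS, whereas the values were 1240 and 759 in basal HB, with 11900 and 10800 in suprabasal HB, where Sfrp4 was highest, and all 8 rose from basal to suprabasal HB. The part of these cells in the suprabasal HB levels of Sfrp4, Dkk3 and Dkk4 was not tested. ORS replicate 1 had more than replicate 2 of 8 members, all but Dkk2 and Dkk3, and also higher sums of the dermal and melanocyte lists and of the hair shaft and inner root sheath list (955 against 509 TPM). The part of these in the difference between the ORS libraries was not tested.

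**Figure D4:**
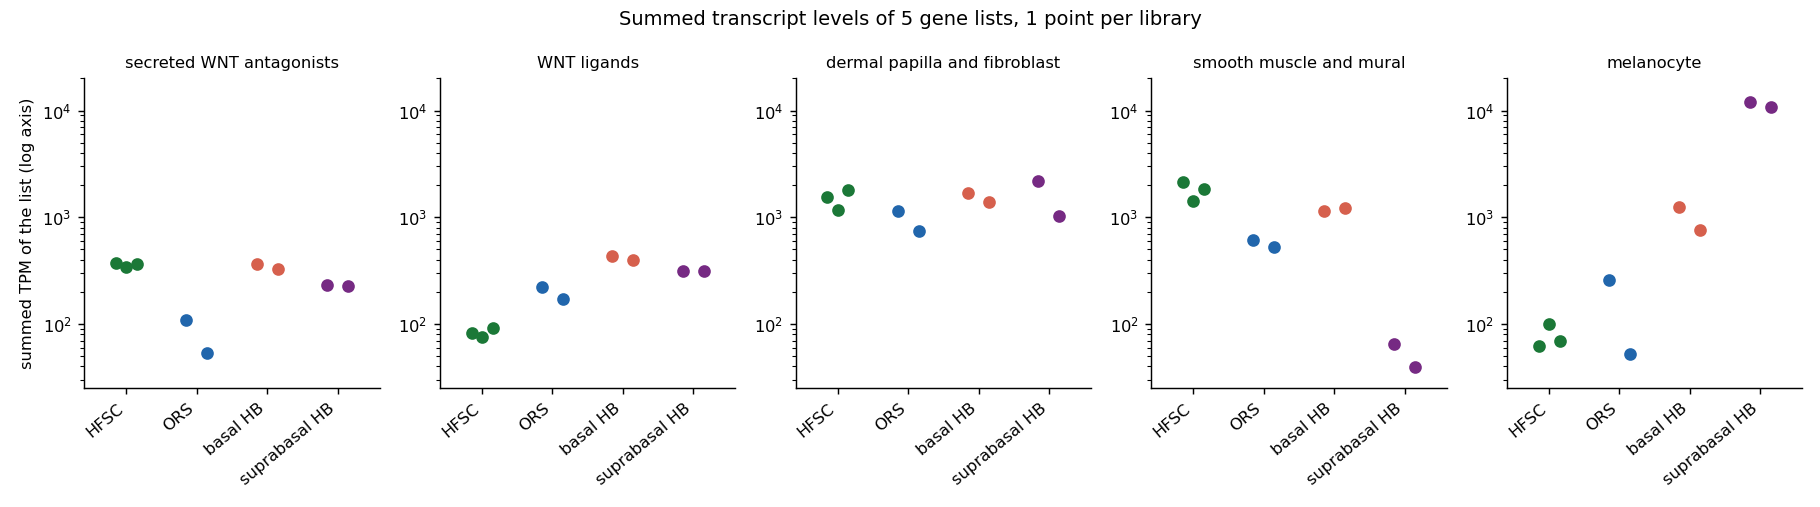
Points give the summed TPM of the 10 antagonists, the 19 WNT ligands and 3 lists of markers of other cells in each of the 9 libraries, on a shared log axis. Antagonists are lowest in ORS, ligands lowest in HFSC, smooth muscle and mural genes lowest in suprabasal HB, and melanocyte genes rise to 10800 and 11900 TPM in suprabasal HB.

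The genes whose profile was most like each member were found by the root mean square difference in log2 normalised CPM over the 9 libraries, each gene centred on its own mean, so that 0 would be the same profile. The closest were Plat for Dkk3 (0.12), Gchfr for Wif1 (0.16), Ednra and Bambi for Notum (0.18 each), Kcne4 for Frzb (0.24), Rnf144a for Dkk4 (0.29), Sod3 for Sfrp2 (0.31) and Lama1 for Sfrp4 (0.33). Wnt2, a WNT ligand, was second closest to Sfrp4 (0.41). Sfrp1 was closest to Gm21983 (0.40) and Scrg1 (0.41), Sostdc1 to Casq2 (0.48), and Dkk2 to Rptn (0.65). Between members, the closest profiles were those of Wif1 and Notum (0.45), followed by Frzb and Sostdc1 (0.998). The nearest member to Sfrp1 was Sostdc1, at 2.02.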

How the data were processed

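RNA was measured by paired-end sequencing of TruSeq mRNA libraries from sorted cells, per the labels. The authors aligned reads with Bowtie2 2.2.9 and estimated expression with RSEM 1.2.30 on mm10, per the submitters' processing notes; annotation, strand setting and parameters are not given in the sources used here. The deposited tables hold expected counts per gene and TPM, the authors' length-scaled level. FPKM and the series table (9 columns whose HFSC names match no label) were not used. The members and gene lists were chosen with earlier results of these data known.

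Expected counts were rounded, filtered with filterByExpr, scaled by TMM (factors 0.9 to 1.127) and fitted in edgeR 4.0.16 (R 4.3.3) as 1 quasi-likelihood model with a mean for each of the 4 populations (5 residual degrees of freedom). P-values were Benjamini-Hochberg adjusted over 20491 genes at 0.05. The SE is the log2 change over the square root of F. The procedure was checked on simulated counts. Because no label says that replicates came from separate mice, p-values measure the spread between these libraries, which may be technical. Depth was 25098237 to 88596741 counts per library, and 3 counts correspond to at most 0.133 normalised CPM, by counting error only.

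All 10 members are named in each comparison. From every other WNT list, at most the 2 higher and 2 lower genes of lowest p are named, and the genes most like a member are those with the smallest root mean square difference in log2 normalised CPM (prior count 2). Alternatives were DESeq2 size factors, upper-quartile scaling, the DESeq2 1.42.0 Wald test, no filter, a filter of 1 CPM in 2 libraries, the replicate block, only the 2 populations compared, limma 3.58.1 on log2 TPM with pseudocounts of 1 and 0.1, and each library left out. Promoter windows came from RefSeq (GRCm38.p6) and gene positions from GENCODE on GRCm38. Protein sequences were not used here.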

Additional observations from a re-analysis of the deposited data

How the results depend on the processing

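Of 60 comparisons of a member, 38 passed the threshold, and 30 of these passed in every one of the 18 alternatives that could be computed for them. Of 1072 values under an alternative, 19 turned direction, whether or not they passed. Among those that kept their direction, 979 kept their side of the threshold, 49 dropped below it and 25 rose above it. No value that turned direction had passed in the fit reported. The replicate block left the counts of members at 5, 7, 6, 7, 6 and 6, in the order ORS against HFSC, basal HB against ORS, suprabasal against basal HB, basal HB against HFSC, suprabasal HB against ORS and suprabasal HB against HFSC. The deviations of 12 same-numbered pairs correlated at -0.105 to 0.121. Some of these values repeat, such as 0.0974 for ORS with basal HB under both numbers, so they are not 12 separate checks. They cannot decide whether the replicate numbers pair the samples, since paired samples may also correlate weakly and the labels name no mice. The block ended 1 call, Notum in suprabasal against basal HB (adjusted p = 0.092).

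With 1 library left out, the members called ranged from 4 to 8, 6 to 8, 5 to 8, 6 to 7, 4 to 6 and 5 to 8 in the same order, and all genes called from 6503 to 8579, 3425 to 6252, 2729 to 5870, 6422 to 10152, 3823 to 6296 and 8717 to 10651, against 8576, 6245, 5721, 10026, 6021 and 10562 with every library. Counts moved by over 1.5 times without ORS replicate 2 (8 members for ORS against HFSC, and 3823 genes for suprabasal HB against ORS), without basal HB replicate 1 (3425 genes against ORS, 2729 for suprabasal against basal HB, 6422 against HFSC), without basal HB replicate 2 (4043 genes against ORS, 3043 for suprabasal against basal HB) and without suprabasal HB replicate 2 (3539 genes against basal HB). The values that turned direction were log2 changes of Dkk2 for suprabasal HB against ORS (0.0033 with the replicate block, 0.0033 with those 2 populations alone, and -0.65 to 0.57 with 1 library left out) and of Sfrp2 for basal HB against HFSC (0.0020 with limma on log2(TPM + 0.1)). With 1 library left out they were also those of Wif1 (-0.61 to 1.06) and Notum (-0.25 to 0.999) for ORS against HFSC, and of Dkk4 (-0.28 to 1.41) and Sfrp1 (-0.18 to 0.91) for basal HB against ORS. The others were Sfrp2 (-1.42 to 0.42) for suprabasal against basal HB, Sfrp4 (-0.084 to 0.31) for basal HB against HFSC, Frzb (-0.027 to 1.76) and Sostdc1 (-0.74 to 2.25) for suprabasal HB against ORS, and Sfrp2 (-1.84 to 0.13) for suprabasal HB against HFSC. The causes were not tested. Depth limits Dkk4, which had 0 to 4 counts in HFSC, and only 2 libraries in 3 of the populations limit every spread.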
